A study of Schmidtea mediterranea with 40 samples.

Results

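Sexually mature and asexual adults of the planarian Schmidtea mediterranea (Smed), a freshwater flatworm, were compared across the whole transcriptome. The comparison took all 8 adult samples of the 40 in the series, which otherwise holds embryos and yolk, and 28714 of the 35262 transcripts listed, those whose values summed to at least 1 RPKM over the 8 adults. RPKM, reads per kilobase of transcript per unit of library size, makes levels comparable between transcripts of different length. The sexual group (SX) was 4 single, intact, virgin hermaphrodites that had reached sexual maturity. The asexual group (C4) was 4 single, intact adults of CIW-4, a clonal line that is propagated by cutting and regeneration, so that all of its animals are 1 clone. Both groups were untreated and kept in the dark on beef liver. The age and size of the adults were not given in the sources used here, nor whether the SX animals came from the outbred sexual stock or from a clonal sexual line that was also kept. Per the study's methods, C4 libraries were sequenced in lanes shared with embryo and yolk libraries, and the SX libraries together in a lane of their own on another Illumina instrument. Biotype, strain, reproductive state and sequencing run therefore cannot be told apart. Late embryos at hatching (S8, 4 samples), which the study's methods also call newborn hatchlings, are given beside the adults without a test. They are of the sexual biotype, from capsules of outbred adults, but immature, and were sequenced alongside C4.

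Planarians of the asexual biotype reproduce by fission and have no mature gonads. Animals of the sexual biotype grow testes, ovaries, yolk glands and a copulatory apparatus after hatching, and these organs are remodelled from neoblasts, the pluripotent stem cells of the adult. In testes, spermatogonia divide, enter meiosis and elongate into sperm. Neuropeptides, which are cut from secreted prohormones, are known regulators of germ cell development in this species, and nanos marks its germline stem cells.

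The 8 libraries held similar numbers of reads, 12531379 to 16240415 in SX and 12169042 to 16988531 in C4. Pearson correlations of log2 values across transcripts were 0.945 to 0.975 within SX, 0.952 to 0.981 within C4 and 0.674 to 0.773 between the groups. The distance between groups exceeded that within groups by 0.251 (exact permutation p = 0.0286, the smallest value that 4 against 4 allows). More transcripts reached 1 RPKM in SX (17740 ± 89, SD, n = 4) than in C4 (15727 ± 573; exact two-sided permutation p = 0.0286). Within each group 1 animal stood apart. SX replicate 1 had a mean correlation of 0.947 with the other SX samples against 0.960 to 0.964 for those, and C4 replicate 2 one of 0.959 against 0.970 to 0.974. The share of all RPKM in the 100 highest transcripts was 27.4% ± 2.44 in SX and 26.5% ± 1.21 in C4 (SD, n = 4 each; exact two-sided permutation p = 0.571).

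Sexual adults carried a large set of transcripts that asexual adults hardly had at all, whereas the opposite was rare. At a limma adjusted p under 0.05 and a difference of at least 2-fold, 5461 transcripts were higher in SX (19% of those tested) and 3859 lower (13.4%). The higher set had a median difference of 2.34 on the log2 scale and the lower set one of 1.56. Differences of 32-fold or more numbered 1510 in the higher set and 29 in the lower set. Past the limits the study used for pairwise contrasts (adjusted p under 1e-05, at least 5-fold, at least 1 RPKM in the higher group), 2016 were higher (7.02%) and 161 lower (0.561%). The 4 SX samples lay wholly above the 4 C4 samples for 6383 transcripts (22.2%) and wholly below for 7178 (25%). Log2 differences here and below are on log2(RPKM + 0.1), which understates the change of low transcripts. After quantile normalization of the same values, 3859 transcripts were higher and 6428 lower, which took the share of calls that were higher from 58.6% to 37.5%, and the median difference over all transcripts moved from -0.02 to -0.32. Without SX replicate 1 the counts were 5191 and 3886.

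**Figure D1:**
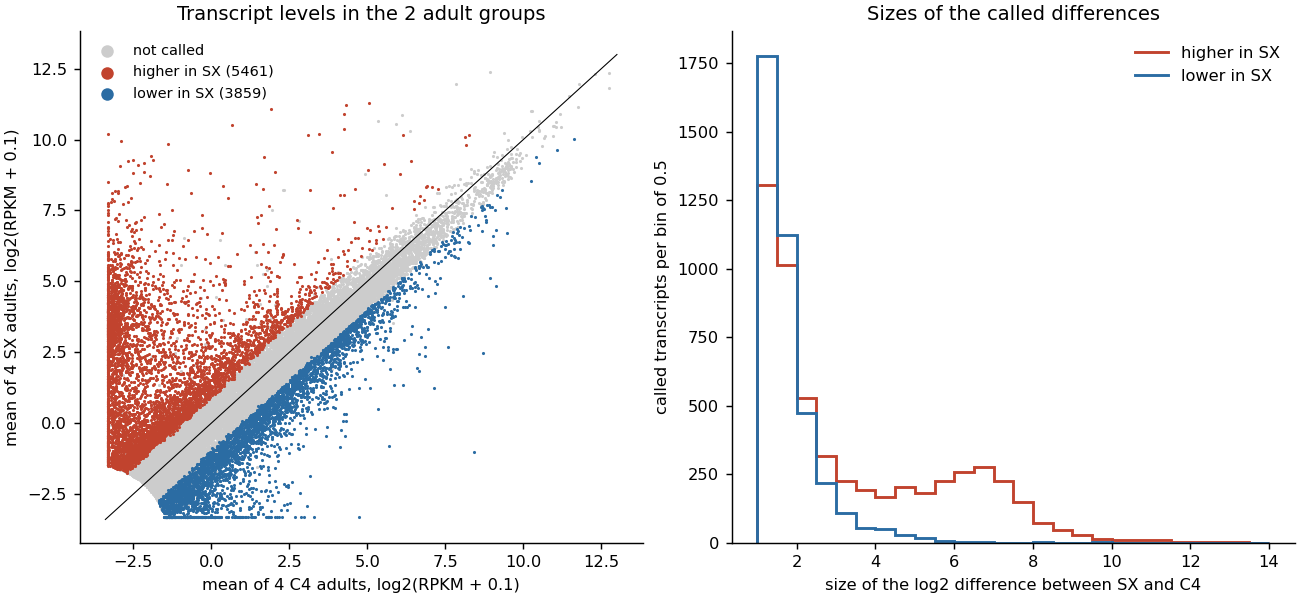
Left, mean log2(RPKM + 0.1) of each of 28714 transcripts in the 4 C4 adults (x axis) and the 4 SX adults (y axis), coloured by call, with the line of equal levels. Right, the number of called transcripts by size of the log2 difference in bins of 0.5. The higher set has a second peak of 276 transcripts between 6.5 and 7, where the lower set has 2. The place of this peak depends on the 0.1 added.

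The sizes of the differences did not fall away evenly. In bins of 0.5 on the log2 scale, the higher set dropped from 1305 transcripts between 1 and 1.5 to 166 between 4 and 4.5, and then climbed to 276 between 6.5 and 7. The lower set dropped from 1778 in the first of these bins to 49 in the second and 2 in the third. The plot of called differences by size shows the second peak in the higher set only. The place of that peak depends on the 0.1 RPKM added to each value. For a transcript without reads in C4, the difference follows from the SX level and this constant alone. Bins under other pseudocounts were not made.

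Transcripts higher by 32-fold or more, a set that takes in this second peak, were chosen for C4 levels far below SX. Most were nearly silent in late embryos too, which had no part in the choice. Over the 1510 transcripts higher by 32-fold or more, the median SX level was 7.98, 16.8, 17.3 and 14.6 RPKM in replicates 1 to 4, and SX replicate 1 was the lowest of the 4 for 1435 of them (95%). The median in the C4 samples was 0, 0, 0 and 0.0159 RPKM, and in all 4 S8 samples it was 0. The mean S8 level was nearer to SX than to C4 for 41 of the 1510. Over the whole higher set it was nearer to SX for 2000 transcripts (36.6%), over the lower set for 2040 (52.9%) and over all transcripts tested for 51.7%. The transcripts of the higher set took 11.7% to 19.1% of the reads in SX and 1.25% to 1.67% in C4. Those of the lower set took 4.73% to 6.53% in SX and 13.7% to 14.7% in C4.

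Transcripts that were present in 1 group alone showed the same imbalance. In the higher direction, 542 transcripts had no read in any C4 library and a mean of at least 1 RPKM in SX, with a median of 8.88 and a highest value of 1173 RPKM. Of these, 515 averaged under 0.1 RPKM in S8. In the lower direction, 54 had no read in any SX library and at least 1 RPKM in C4, with a median of 1.85 and a highest value of 26.2 RPKM. A transcript without reads is not shown to be absent. The 3 reads that a count of 0 allows are the floor used for fold bounds below, and such bounds cover counting error only. Reads of both groups were mapped to 1 assembly that was built from both biotypes.

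Names are scarce where the differences are largest. The study's tables annotate 2714 of the transcripts tested, and these are mostly embryonic and neoblast transcripts. Only 19 of the 1510 transcripts higher by 32-fold or more have an annotation, and 3 of the 542 without reads in C4. Annotated transcripts leaned the other way from the whole: 277 of the 2714 were higher (10.2%) and 656 lower (24.2%), with a median of -0.44. The counts of the gene lists below are best read against these shares as well as against 19% and 13.4%. In whole animals, fewer cells of a type and less RNA per cell cannot be told apart.

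The largest differences belonged to 3 transcripts without annotation. SMED30006104 measured 615, 1517, 1421 and 1138 RPKM in the 4 SX adults and 0 in each C4 adult, at least 17110-fold higher against a floor of 3 reads over the group. SMED30017110 averaged 980.5 ± 323 RPKM in SX and 0.0349 ± 0.0404 in C4 (SD, n = 4 each). SMED30006063 averaged 532 ± 189 RPKM in SX and 0.0299 ± 0.0599 in C4. All 3 were lowest in SX replicate 1 and averaged 0.137, 0.0372 and 0.0924 RPKM in S8.

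The annotated transcript with the largest difference was spermatid elongation defective 1 (SED-1, SMED30009122), a gene named for a block in the elongation of spermatids. It measured 328, 607, 681 and 556 RPKM in SX and 0.191, 0.120, 0 and 0.0708 RPKM in C4, a log2 difference of 11.49 (standard error 0.32, limma adjusted p = 2.78e-09). The groups were far apart in every sample, and this sperm marker is thus where the labels place it. In S8 it averaged 0.0438 RPKM. Tubulin alpha-3 (SMED30002688), an alpha-tubulin and so a building block of microtubules, measured 247, 352, 378 and 324 RPKM in SX and 1.40, 1.05, 0.856 and 1.51 in C4 (log2 difference 7.98, standard error 0.19, limma adjusted p = 1.55e-09). S8 embryos had as little of it as C4 adults, 1.21 RPKM on average. Cytoplasmic malate dehydrogenase (SMED30011468), a metabolic enzyme, measured 35.5, 72.7, 63.6 and 54.9 RPKM in SX and 0.240 to 0.517 in C4 (log2 difference 6.85). Translation initiation factor 3 subunit C (SMED30007934), part of the complex that prepares ribosomes for initiation, measured 15.5, 15.3, 13.1 and 13.3 RPKM in SX and 0.312 to 0.415 in C4 (log2 difference 4.96). Unlike the others, it was not lowest in SX replicate 1. Tubulins, histones and ribosomal proteins have close relatives, and reads were counted at up to 5 equally good positions, so levels within such families are uncertain.

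**Figure D2:**
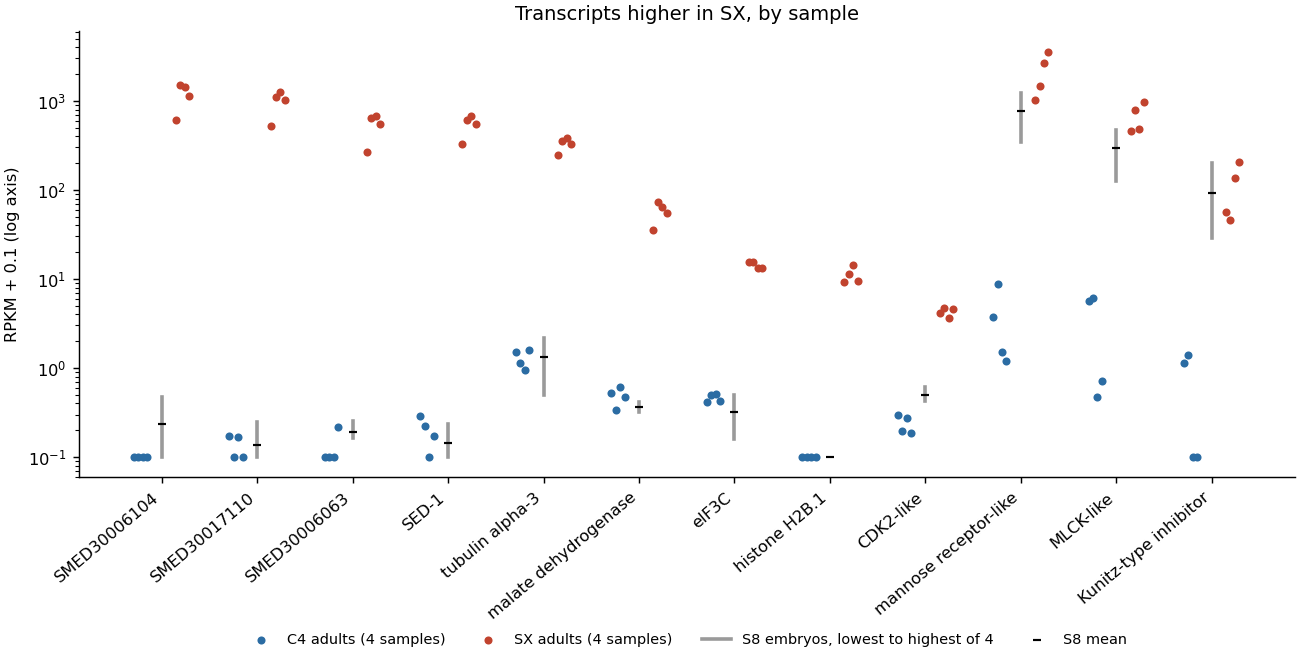
RPKM + 0.1 (log axis) of 12 transcripts higher in SX, with 1 point for each of 4 C4 adults (blue) and 4 SX adults (red), and a grey bar from the lowest to the highest of 4 S8 embryos with a black dash at their mean. The other 9 transcripts are near the C4 level in S8, at means of at most 1.21 RPKM, while the mannose receptor-like, MLCK-like and Kunitz-type transcripts reach means of 763, 299 and 91.9 RPKM there.

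Some strongly higher transcripts were already abundant in late embryos. The 3 given here were named because they are annotated, and the study annotates mostly embryonic and neoblast transcripts. Of the 1510 transcripts higher by 32-fold or more, 41 had a mean S8 level nearer to SX than to C4. A transcript annotated as macrophage mannose receptor 1 (SMED30007501), a C-type lectin that binds sugars, measured 1028, 1455, 2679 and 3583 RPKM in SX, 3.64, 8.59, 1.42 and 1.098 in C4, and 342 to 1220 in S8 (log2 difference of adults 9.45, standard error 0.60, limma adjusted p = 3.3e-07). Its SX values were uneven, the highest being that of replicate 4. A transcript annotated as smooth muscle myosin light chain kinase (SMED30011307), a kinase that acts on myosin in vertebrates, averaged 675 ± 250.5 RPKM in SX, 3.13 ± 3.06 in C4 and 299 in S8 (log2 difference 8.44). A Kunitz-type proteinase inhibitor (SMED30020397) averaged 111 ± 74.4 RPKM in SX, 0.584 ± 0.683 in C4 and 91.9 in S8 (log2 difference 8.02). In C4 the latter pair was at its lowest in replicates 3 and 4. In S8, embryos without a mature reproductive system, all 3 were far above the highest C4 adult.

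Most regulators that planarian germ cells share with neoblasts did not differ by the size required. Of 15 germ plasm and germ cell RNA regulators, 12 were tested, 2 were higher and 1 lower, with a median of -0.25. nanos (SMED30034750) measured 9.08, 4.51, 4.71 and 4.08 RPKM in SX and 2.75, 3.39, 1.62 and 2.58 in C4. The groups did not overlap, and the log2 difference was 1.05 (standard error 0.28, limma adjusted p = 0.0106), but SX replicate 1 was far above the other SX animals and without it the difference was 0.80 (limma adjusted p = 0.0192), under the 2-fold limit. It was also under that limit without C4 replicate 3 (0.85), with a pseudocount of 1 (0.85) and after quantile normalization (0.72), and a fit over all 40 samples gave it an adjusted p of 0.149. cgh-1 (SMED30006692), a helicase of germ granules in worms, measured 2.62, 5.15, 4.80 and 6.60 RPKM in SX and 0.459, 0.576, 0.283 and 0.643 in C4 (log2 difference 3.02, standard error 0.31, limma adjusted p = 2.01e-05). In S8 it averaged 0.0706 RPKM. A CELF family RNA binding protein (SMED30011420) was lower, at 2.37 ± 0.795 RPKM in SX and 6.80 ± 0.611 in C4 (log2 difference -1.53).

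Transcripts of the PIWI proteins, which silence transposons in germ cells and neoblasts, were abundant in both groups. piwi-1 (SMED30007406) measured 121, 77.3, 91.8 and 68.9 RPKM in SX and 96.1, 119, 105 and 75.0 in C4, with overlapping ranges (log2 difference -0.15, standard error 0.20, limma adjusted p = 0.555). piwi-2 (SMED30014446) differed by -0.19 (limma adjusted p = 0.237). piwi-3 (SMED30001362) passed the p limit at -0.39 but not the fold limit. The same held for the helicase vasa-1 (SMED30031463), at -0.39, and for bruno-like (SMED30023062), at -0.48.

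Few transcripts annotated for sperm and flagella were called. Of 20 tested in the sperm and spermatogenesis list, SED-1 alone was higher (5%) and 4 were lower (20%), with a median of -0.49. Over annotated transcripts 10.2% were higher and 24.2% lower, with a median of -0.44. The list was drawn from that annotation, which holds only 3 of the 542 transcripts without reads in C4. Transcripts made in testes alone may thus be missing from it, and the list does not speak for sperm genes at large. The 4 lower ones were sperm-associated antigen 6 (SMED30019318), testis-expressed sequence 43 (SMED30000048) and a pair annotated as spermatogenesis-associated protein 1 (SMED30027901 and SMED30028825), by log2 differences of -1.09, -1.14, -1.06 and -1.02. These calls lay close to the 2-fold limit: the first dropped below it without C4 replicate 2 (-0.97), the second without SX replicate 3 (-0.96) or C4 replicate 1 (-0.99), and the third without SX replicate 1 (-0.97), SX replicate 3 (-0.98) or C4 replicate 4 (-0.98). Sperm-associated antigen 6 is a protein of motile axonemes, and planarians bear motile cilia on their ventral epidermis. Sperm-associated antigen 6 measured 20.9, 21.5, 16.4 and 21.0 RPKM in SX and 43.6, 55.1, 37.1 and 36.3 in C4. Because of SED-1 the summed level of the list was nonetheless 459 to 810.5 RPKM in SX and 180.5 to 209 in C4.

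The axoneme list, whose proteins build the moving core of cilia and flagella, had 40 tested members with 1 higher, 6 lower and a median of -0.07. Axonemal dynein heavy chain 1 (SMED30020574), a motor of the axoneme, averaged 14.4 ± 2.40 RPKM in SX and 6.28 ± 1.59 in C4 (log2 difference 1.21, limma adjusted p = 0.000463). The lower members included 4 radial spoke head proteins, which signal to the dynein arms: the homologs of 3 (SMED30025672), 4A (SMED30019565), 6A (SMED30025231) and 9 (SMED30012136), with differences of -1.13, -1.07, -1.01 and -1.22. Tektin-4 (SMED30012757), a filament protein of axonemal microtubules, measured 9.92, 11.8, 11.98 and 14.2 RPKM in SX and 32.3, 27.2, 27.5 and 26.6 in C4 (log2 difference -1.25, limma adjusted p = 1.75e-05). Tektin-1 (SMED30027478) differed by 0.39 and tektin-2 (SMED30013840) by -0.36, both under the fold limit. When the values were scaled to total reads the median of the list turned to 0.01.

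Sex determination genes and hormone receptors gave 0 higher and 2 lower among 10 tested, with a median of -0.60. The lower pair were the nuclear receptors NR2F1-A (SMED30003731), at 0.242 ± 0.0573 RPKM in SX and 1.13 ± 0.219 in C4, and NR2E1 (SMED30012299), at 0.508 ± 0.0966 in SX and 1.78 ± 0.224 in C4. The vertebrate relatives of both are transcription factors of the nervous system. A doublesex and mab-3-related factor (SMED30019413), of the family that sets male fate in many animals, averaged 0.929 ± 0.439 RPKM in SX and 1.14 ± 0.435 in C4 (limma adjusted p = 0.525). A male abnormal 3 relative (SMED30019616) averaged 2.82 ± 0.204 in SX and 2.10 ± 0.371 in C4 (limma adjusted p = 0.064).

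Cell cycle and DNA replication transcripts were more often called higher than lower in the sexual adults. Of 37 tested, 10 were higher (27%, against 10.2% of annotated transcripts and 19% of all tested) and 1 lower, with a median of 0.48. After quantile normalization 6 were higher and 3 lower, with a median of 0.21. A cyclin-dependent kinase 2 relative (SMED30012782), a kinase of the start of S phase, measured 4.00, 4.65, 3.58 and 4.53 RPKM in SX and 0.195, 0.0979, 0.176 and 0.0865 in C4 (log2 difference 4.19, standard error 0.24, limma adjusted p = 1.45e-07). DNA polymerase epsilon subunit 2 (SMED30031663), which helps copy the leading strand, measured 5.88, 10.1, 11.2 and 9.33 RPKM in SX and 0.832, 0.959, 0.835 and 0.531 in C4 (log2 difference 3.36). Its S8 mean of 1.11 RPKM lay close to C4. A cyclin-dependent kinase 1-A relative (SMED30024555), of the kinase that drives entry into mitosis, averaged 10.8 ± 0.586 in SX and 2.48 ± 0.250 in C4 (log2 difference 2.08). The mismatch repair gene msh6 (SMED30027419) differed by 1.77, aurora kinase-1 (SMED30015999), a mitotic kinase, by 1.61, ribonucleotide reductase subunit M2 (SMED30026659), which makes DNA precursors, by 1.28 and cyclin B-2 (SMED30005246) by 1.03.

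The other 26 members were not called. PCNA (SMED30004304), the sliding clamp of DNA polymerase, measured 45.8, 28.7, 29.7 and 26.2 RPKM in SX and 27.9, 43.1, 27.7 and 23.8 in C4 (log2 difference 0.09, standard error 0.22, limma adjusted p = 0.744). Cyclin B-1 (SMED30014394) differed by 0.49 (limma adjusted p = 0.0256). The replicative helicase subunits MCM2 (SMED30006979), MCM5 (SMED30032563) and MCM6 (SMED30033600) differed by 0.48, -0.13 and -0.99, none past the fold limit. A second cyclin dependent kinase 1 transcript (SMED30023903) differed by -0.14. SX replicate 1 was the highest SX animal for PCNA, nanos and piwi-1, and the lowest for the 3 transcripts of the largest differences.

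Histone transcripts were higher or did not pass. Of 8 tested, 4 were higher (50%, against 10.2% of annotated transcripts) and none lower. The median was 1.08, and all 8 had a positive difference. A transcript annotated as embryonic histone H2B.1 (SMED30023646) measured 9.25, 11.2, 14.3 and 9.42 RPKM in SX and 0 in each C4 and each S8 sample, at least 115-fold higher than C4 against the floor of 3 reads. A second H2B transcript (SMED30021461) averaged 24.1 ± 3.84 RPKM in SX, 4.22 ± 1.82 in C4 and 33.2 in S8, and a histone H3 transcript (SMED30021776) averaged 4.81 ± 0.899, 0.893 ± 0.221 and 8.47. The replication-independent variant H2A.v (SMED30017222) differed by 0.01. The libraries were made from polyadenylated RNA, whereas many animal histone messages end without a poly(A) tail; the part of this in the levels was not tested.

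Neoblast-enriched transcripts, which the study lists because they fell in whole animals after lethal irradiation, had 65 higher (26.9%), 5 lower (2.07%) and a median of 0.39. Over annotated transcripts 10.2% were higher and 24.2% lower. After quantile normalization 38 were higher and 16 lower, with a median of 0.08. Tubulin alpha-3, malate dehydrogenase and initiation factor 3C above belong to this list. Fidgetin-like protein 1 (SMED30011181), a recombination factor, differed by 3.32, a nuclear transcription factor Y subunit (SMED30007328) by 3.51, kinesin-like KIF23 (SMED30004988), which acts in cytokinesis, by 1.92, and a 14-3-3 protein (SMED30031447) by 2.26. The summed level of the list overlapped between the groups, at 3628 to 4418 RPKM in SX and 2686 to 4132 in C4. Markers of neoblast subclasses gave no call among 9 tested, with a median of -0.45. The epidermal progeny markers prog-1 (SMED30035904 and SMED30020396) and AGAT-1 (SMED30018353) differed by 0.62, -0.27 and -0.82 and were not called either.

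**Figure D3:**
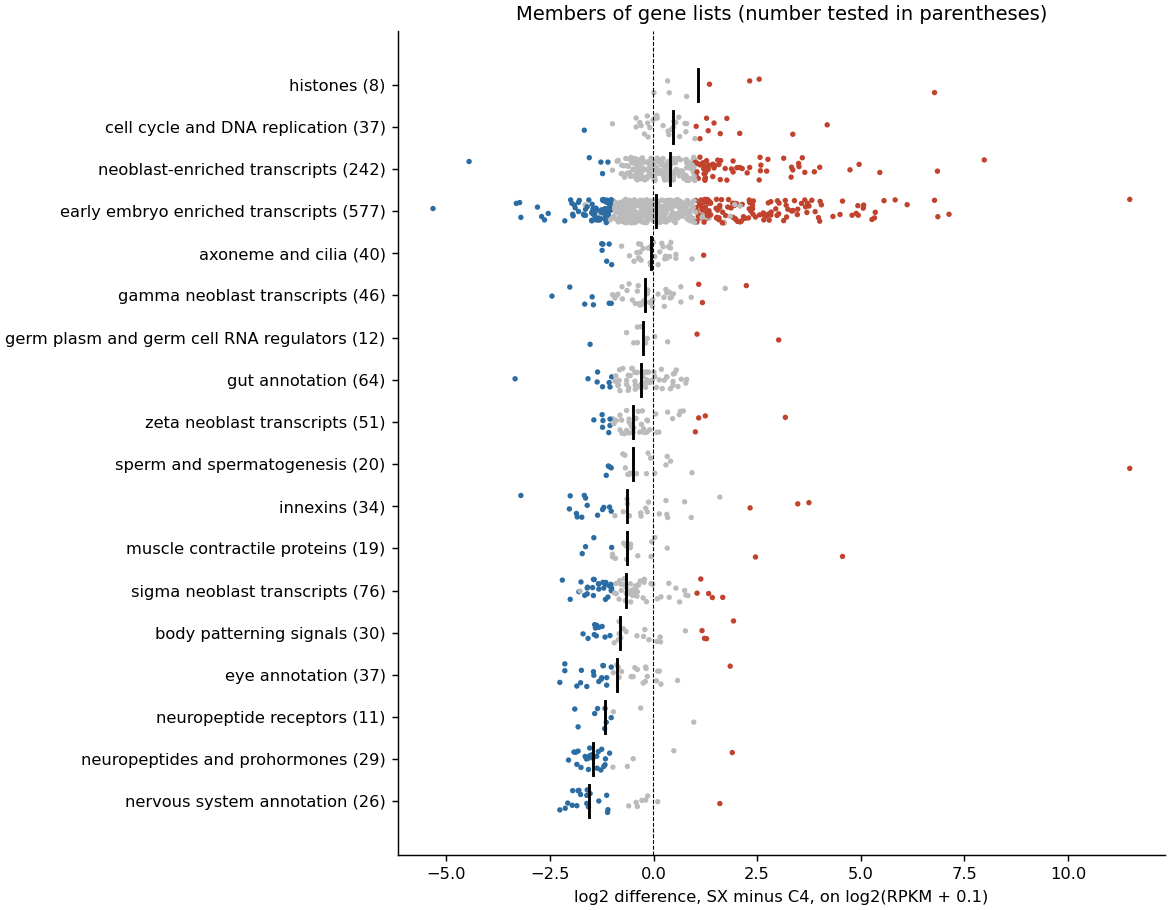
Log2 difference (SX minus C4, x axis) of every tested member of 18 gene lists (y axis, number tested in parentheses), red where higher, blue where lower and grey where not called; the black bar is the list's median and the dashed line the median of all transcripts, -0.02. Neural lists lie to the left with medians of -1.55, -1.46 and -1.17, and histones furthest to the right at 1.08.

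The clearest group on the other side was neural. Of 29 neuropeptide precursors, prohormones and processing enzymes tested, 24 were lower in SX (82.8%), 1 was higher and 4 were not called, with a median of -1.46. Over annotated transcripts 24.2% were lower and 10.2% higher. None of the 24 overlapped between the groups, but neither did 3479 of all 3859 transcripts called lower, so this adds little to the calls. The summed level of the 29 tested was 318 to 495 RPKM in SX, 824 to 1164 in C4 and 459 to 726 in S8. The count was 25 without SX replicate 1 and 24 after quantile normalization. Among the 24 called lower, SX replicate 1 was the highest of the 4 SX animals for 22. It was also the animal with the least of the large SX set. Over the 603 transcripts lower by 5-fold or more, it was the highest SX animal for 293 and the lowest for 291, with ties given to replicate 1.

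Transcripts of both the peptides and the enzymes that cut and cap them took part. Neuroendocrine convertase 2 (SMED30010096), the protease that cleaves prohormones, measured 21.6, 17.8, 13.8 and 14.8 RPKM in SX and 63.3, 72.3, 61.2 and 83.7 in C4 (log2 difference -2.05, standard error 0.16, limma adjusted p = 2.08e-06). The S8 embryos lay between, at 27.02 to 44.2. The amidating enzyme peptidyl-alpha-hydroxyglycine alpha-amidating lyase 2 (SMED30017749) averaged 12.2 ± 2.91 RPKM in SX and 44.6 ± 7.84 in C4 (log2 difference -1.88). Secreted peptide prohormone 1 (SMED30019678) measured 40.1, 26.3, 19.2 and 21.7 RPKM in SX and 103, 119, 84 and 87.6 in C4 (log2 difference -1.92, limma adjusted p = 4.19e-05), and a fit over all 40 samples gave it an adjusted p of 0.0534. Neuropeptide precursor 8 (SMED30009105) averaged 3.21 ± 1.00 RPKM in SX and 9.98 ± 1.67 in C4 (log2 difference -1.65). Neuropeptide Y prohormone-9 (SMED30016731) averaged 6.61 ± 0.671 and 19.1 ± 4.37 (log2 difference -1.49). The named secreted peptide prohormones 3, 4, 5, 12, 13 and 15 had log2 differences of -1.58 to -1.06, and prohormone-16 (SMED30001301) missed the fold limit at -0.98.

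The exceptions were few. Insulin-like prohormone-1 (SMED30008848), which is expressed in planarian brain and reported in testes, measured 7.51, 14.1, 21.7 and 15.4 RPKM in SX and 3.37, 3.64, 3.59 and 3.84 in C4 (log2 difference 1.90, standard error 0.26, limma adjusted p = 0.000183). S8 embryos had less of it than either adult group, 1.26 to 1.64 RPKM. Neuropeptide precursor-18 (SMED30011550) differed by 0.49 and neuropeptide precursor-5 (SMED30001806) by -0.49, neither called.

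**Figure D4:**
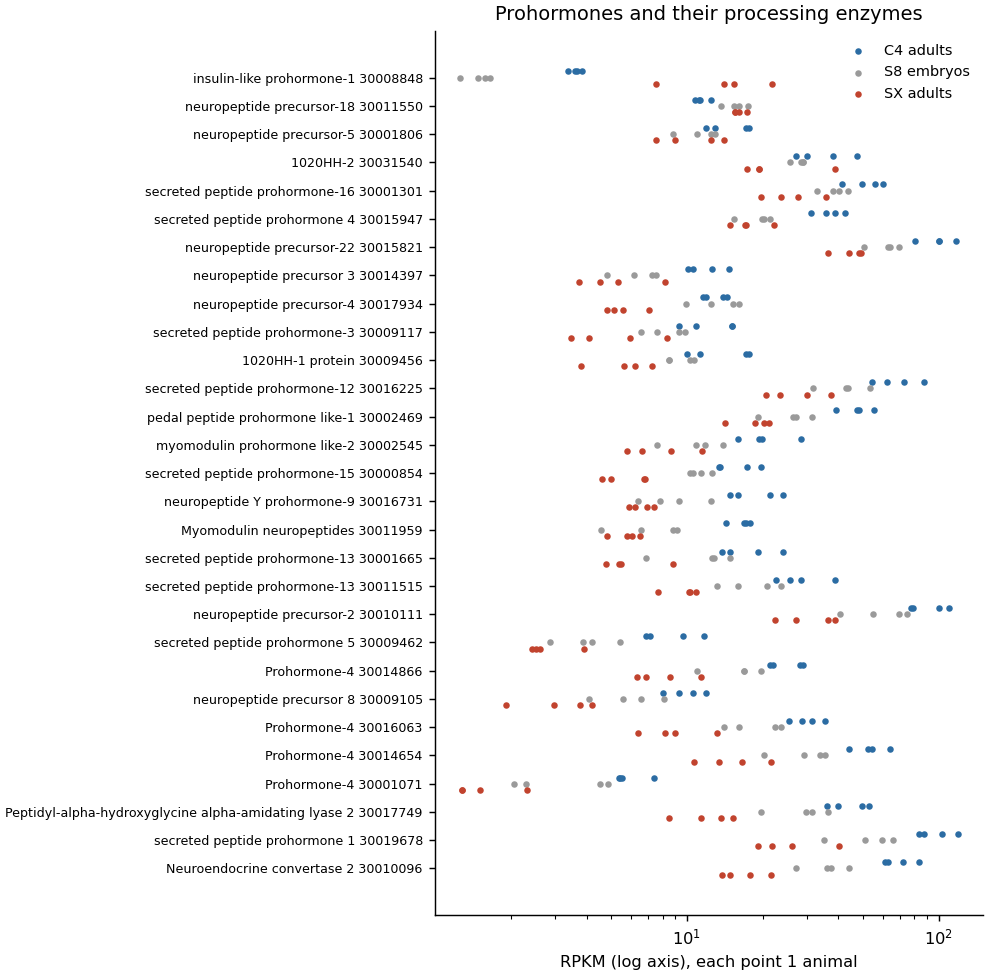
RPKM (log axis) of the 29 tested prohormones, neuropeptide precursors and processing enzymes, with 1 point for each of 4 C4 adults (blue), 4 S8 embryos (grey) and 4 SX adults (red); digits after a name are the end of the transcript identifier. In the 24 called lower, and in prohormone-16, which was not called, the SX animals lie below all C4 animals, and insulin-like prohormone-1 alone is called the other way.

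Receptors and other neural transcripts were lower as well. Of 11 neuropeptide receptors, 8 were lower (72.7%, against 24.2% of annotated transcripts) and none higher, with a median of -1.17. A putative neuropeptide Y receptor (SMED30029661) averaged 1.02 ± 0.312 RPKM in SX and 3.95 ± 0.373 in C4 (log2 difference -1.90, limma adjusted p = 4.34e-05), and a neuropeptide FF receptor relative (SMED30000095) 0.367 ± 0.109 and 1.51 ± 0.0931. Of 26 transcripts that the study annotates to the nervous system, 18 were lower (69.2%, against the same 24.2%) and 1 higher, with a median of -1.55. The transcription factor coe (SMED30005164), needed for neuronal identity in planarians, measured 1.77, 0.888, 0.975 and 1.18 RPKM in SX and 5.01, 4.98, 5.59 and 5.28 in C4 (log2 difference -2.07). The protocadherin pcdhP-1 (SMED30013790), a cell adhesion gene, was lower by a log2 difference of -2.26 and pou4 (SMED30032426), a factor of sensory neurons, by one of -1.80. Transcripts for synaptic vesicle release were among them, with VAMP2 (SMED30023495) at -1.61, synaptotagmin-9 (SMED30007426) at -1.61 and complexin-1 relatives (SMED30009438 and SMED30000242) at -1.96 and -1.32. The member that was higher was cut-related homeobox Cux-1 (SMED30016218), at 12.2, 15.3, 16.3 and 15.8 RPKM in SX and 3.78, 4.37, 4.73 and 6.94 in C4 (log2 difference 1.6).

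In S8 embryos the nervous system list stood with the asexual adults. Its summed level was 93.6 to 121.7 RPKM in SX, 172.2 to 222 in C4 and 175 to 241 in S8. The study flags adult neural transcripts within its lists of transcripts enriched at later embryo stages, S8 included. The S8 level of this list is therefore not independent of how its members were picked. For the 18 called lower the median level was 1.92, 1.40, 0.971 and 1.07 RPKM in the SX animals, 4.38 to 4.89 in C4 and 3.56 to 5.09 in S8. SX replicate 1 was the highest SX animal for 15 of the 18, and for 293 of the 603 transcripts lower by 5-fold or more. The eye list, which shares some members with the nervous system list, had 17 lower and 1 higher of 37, with a median of -0.89, and its summed level was 198 to 257 RPKM in SX and 316 to 394 in C4. Sigma neoblast transcripts, a neoblast class presumed to mix progenitors and pluripotent cells, had 26 lower and 5 higher of 76 with a median of -0.66. The share lower was 45.9% in the eye list and 34.2% in the sigma list, against 24.2% of annotated transcripts. The nervous system, eye and sigma lists share members, among them the complexin SMED30000242.

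Several abundant muscle protein transcripts were lower, but the list held no larger share of lower calls than annotated transcripts at large. Of 19 contractile proteins, 4 were lower (21.1%, against 24.2% of annotated transcripts) and 2 higher, with a median of -0.65 and a summed level of 1857 to 2455 RPKM in SX against 3439 to 4346 in C4. Myophilin (SMED30029432), a calponin family protein that binds actin, measured 163, 130, 121 and 126 RPKM in SX and 496, 494, 418 and 372 in C4 (log2 difference -1.72, standard error 0.16, limma adjusted p = 1.05e-05). A striated muscle myosin heavy chain (SMED30016281) averaged 159 RPKM in SX and 435 in C4, and calponin-1 (SMED30015168) 143 ± 25.2 and 445 ± 62.4. The pair that was higher were low tropomyosin transcripts, one of which (SMED30015345) averaged 3.41 ± 0.927 RPKM in SX and 0.0496 ± 0.0409 in C4, while the abundant tropomyosin-2 (SMED30002983) differed by -1.01.

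Body patterning signals, which in planarians are largely made by muscle, had a median of -0.81. Of 30 tested, 11 were lower (36.7%, against 24.2% of annotated transcripts) and 4 higher. The lower members included Wnt ligands and receptors, namely Wnt-2 (SMED30026602) at -1.42, Wnt-5b (SMED30016207) at -1.24, frizzled-5 (SMED30016952) at -1.40 and frizzled-8 (SMED30017913) at -1.43, as well as FGF receptor-like 1 (SMED30029487) at -1.70. An inhibin beta E chain relative (SMED30009429), a ligand of the activin branch, was higher, at 4.12, 6.56, 8.35 and 9.96 RPKM in SX and 1.81, 1.63, 1.78 and 1.74 in C4 (log2 difference 1.93, limma adjusted p = 8.58e-05). S8 embryos had 1.70 to 2.74 RPKM of it. A second inhibin relative (SMED30031091) averaged 18.7 ± 1.24 RPKM in SX and 16.9 ± 3.78 in C4 (limma adjusted p = 0.374).

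In the gut, epidermis, protonephridia and collagen lists the share of lower calls was below the 24.2% of annotated transcripts. The gut annotation gave 8 lower and none higher of 64, with a median of -0.31, and its summed level overlapped, at 5388 to 7299 RPKM in SX and 4817 to 7133 in C4. One gut transcript stood out: dihydropyrimidine dehydrogenase (SMED30004216), which breaks down pyrimidine bases, measured 5.61, 6.07, 6.84 and 5.56 RPKM in SX and 66.9, 63.8, 63.2 and 53.3 in C4 (log2 difference -3.34, standard error 0.11, limma adjusted p = 4.89e-09). S8 embryos had 4.10 to 6.15 RPKM, the level of the sexual adults. The epidermis annotation had 5 lower and none higher of 22 (median -0.77) and protonephridia, the excretory organs, no call among 6 (median -0.34). Collagens had 1 higher and 1 lower of 14 (median 0.45).

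The list for yolk, egg capsule and storage was drawn up by annotation, and expression of its members in yolk glands was not tested. Of 18 yolk, egg capsule and storage transcripts tested, 2 were higher and 3 lower, with a median of -0.29. Vitellogenin-like (SMED30003809), a yolk lipoprotein relative, measured 89.2, 75.7, 100.2 and 95.2 RPKM in SX and 72.0, 41.5, 68.4 and 49.7 in C4, a difference of 0.67 (limma adjusted p = 0.0125) that stayed under the fold limit although the groups did not overlap. Soma ferritin (SMED30003469), an iron store, measured 903, 165, 620 and 733 RPKM in SX and 46.6, 141, 107 and 40.6 in C4 (log2 difference 2.80, limma adjusted p = 0.00194). A cathepsin B transcript (SMED30010459), a cysteine protease, measured 0.0634, 9.71, 20.2 and 22.5 RPKM in SX and 0.0330 to 0.269 in C4. Here SX replicate 1 lay within the C4 range, and the call (log2 difference 4.39, limma adjusted p = 0.0191) was lost in voom on rebuilt reads and when SX replicate 2, 3 or 4 or C4 replicate 1 was left out. Tyrosinase (SMED30006796), whose relatives harden flatworm egg capsules, averaged 0.420 ± 0.256 RPKM in SX and 0.873 ± 0.505 in C4 (limma adjusted p = 0.12). In the yolk samples of the series, vitellogenin-like averaged 2.96 RPKM, soma ferritin 21.2, the cathepsin B transcript 3.42 and tyrosinase 0.

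The transcripts with the strongest bias to asexual adults were again unnamed. SMED30008790 measured 0.433, 0.428, 0.0847 and 0.618 RPKM in SX and 339, 474, 296 and 257 in C4 (log2 difference -9.56, standard error 0.37, limma adjusted p = 8.54e-09). SMED30003541 had no read in any SX library and measured 25.8, 33.0, 28.7 and 17.3 RPKM in C4, at least 292-fold lower in SX against the floor of 3 reads. It was at 0 to 16.3 RPKM in the S8 embryos, so that the sexual biotype did not lack it throughout. SMED30023242 averaged 2.41 ± 3.25 RPKM in SX and 70.01 ± 14.3 in C4. Among annotated transcripts, a strawberry notch relative (SMED30035711), a Notch pathway gene of flies, measured 0.0607, 0.00999, 0.0593 and 0.0371 RPKM in SX and 5.86, 6.18, 6.23 and 4.10 in C4 (log2 difference -5.32). Another transcript with the same annotation (SMED30013701) differed by 1.88 in the opposite direction. A MELK relative (SMED30004080), a kinase of dividing cells in mammals, averaged 0.00917 ± 0.0183 RPKM in SX and 2.32 ± 0.648 in C4 (log2 difference -4.45).

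The CAP superfamily of secreted proteins is named for cysteine-rich secretory proteins, antigen 5 and PR-1. Its transcripts made up 5 of the 8 named annotated transcripts with the largest difference towards C4. This list was therefore drawn up after the values were seen. Of 29 tested, 10 were lower (34.5%, against 24.2% of annotated transcripts) and 4 higher (13.8%, against 10.2%), with a median of -0.68. SMED30009891, annotated as peptidase inhibitor 16, measured 1.18, 0.485, 1.92 and 1.598 RPKM in SX and 39.4, 51.1, 41.9 and 28.5 in C4 (log2 difference -4.96, standard error 0.35, limma adjusted p = 7.45e-07). SMED30013734 measured 4.25, 2.58, 7.87 and 5.35 RPKM in SX and 122.3, 151, 114 and 74.9 in C4 (log2 difference -4.56). SMED30018331, SMED30000735 and SMED30006450 were lower by log2 differences of -4.32, -4.20 and -3.94. The 10 lower members shared their extreme animals: SX replicate 2 was the lowest SX animal for 10 of 10, C4 replicate 2 the highest C4 animal for 10 of 10, and C4 replicate 4 the lowest for 10 of 10. Over the 603 transcripts lower by 5-fold or more, the same held for 139, 275 and 163. Reads that fit several paralogs can be shared, so these 10 may not be separate observations. Their S8 medians, 10.6 to 30.0 RPKM, lay between SX (2.75 to 7.83) and C4 (48.7 to 75.9). Not all of the family was low, since a venom allergen 5 relative (SMED30018781) averaged 136 RPKM in SX and 23.7 in C4, and a Golgi-associated pathogenesis-related protein (SMED30035604) 2.83 ± 1.02 and 0.0171 ± 0.0342.

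**Figure D5:**
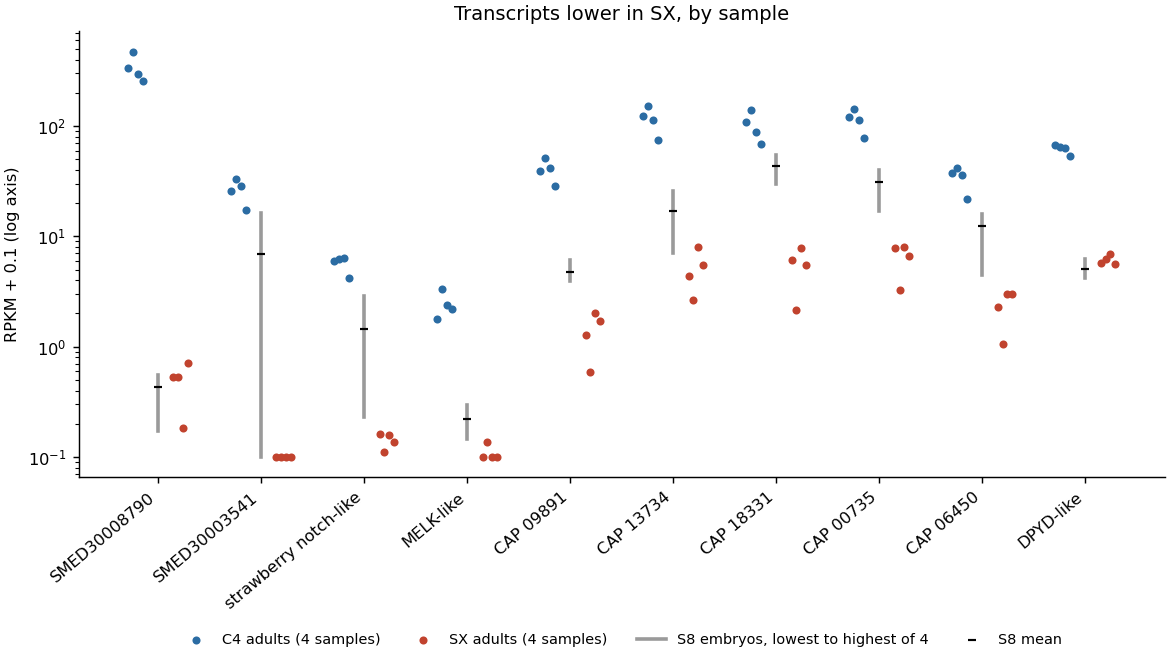
RPKM + 0.1 (log axis) of 10 transcripts lower in SX, with 1 point for each of 4 C4 adults (blue) and 4 SX adults (red), and a grey bar from the lowest to the highest of 4 S8 embryos with a black dash at their mean; CAP labels carry the end of the transcript identifier. No SX point reaches a C4 point in any of the 10, and the 5 CAP transcripts sit between the groups in S8.

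Innexins, the proteins of invertebrate gap junctions, contained members that differed strongly in opposite directions. This list, too, was drawn up after the values were seen. Of 38 members 34 were tested, with a median of -0.64. Of these, 14 were lower (41.2%, against 24.2% of annotated transcripts) and 3 higher (8.82%, against 10.2%). Innexin unc-9 (SMED30018253) measured 0.884, 2.42, 3.35 and 1.90 RPKM in SX and 0.0588, 0.0246, 0.0530 and 0.0725 in C4 (log2 difference 3.75, standard error 0.39, limma adjusted p = 1.99e-05). Innexin-12 (SMED30014431) measured 1.66, 2.42, 5.06 and 2.50 RPKM in SX and 0.142, 0.0596, 0.171 and 0.264 in C4 (log2 difference 3.48). Innexin-19 (SMED30007130) went the other way, at 0.0303, 0.0249, 0.0592 and 0.0308 RPKM in SX and 1.14, 1.43, 0.967 and 1.097 in C4 (log2 difference -3.20, standard error 0.27, limma adjusted p = 4.43e-06). In S8 it averaged 0.458 RPKM, between the adult groups. All 3 are low transcripts that the study lists as enriched in early embryos. Another higher member, Innexin-3 (SMED30020267), was uneven, at 0.397, 0.588, 2.38 and 3.82 RPKM in SX, and S8 embryos had 6.70 to 12.4. Other lower members were moderately expressed, such as an innexin unc-9 relative (SMED30004277) at 4.24, 3.29, 3.87 and 3.08 RPKM in SX and 13.1, 17.6, 12.8 and 10.5 in C4.

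The study designed hybridization probes against these 3 innexins, and their target sequences are shown because these low paralogs differ in opposite directions. Each is 100 bases, 5′ to 3′, and capitals mark bases that innexin unc-9 and innexin-19 share when the pair is laid side by side from the first base.
Innexin unc-9 (SMED30018253): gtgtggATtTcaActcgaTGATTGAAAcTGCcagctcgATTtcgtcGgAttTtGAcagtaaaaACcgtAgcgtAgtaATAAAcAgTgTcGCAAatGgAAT
Innexin-19 (SMED30007130): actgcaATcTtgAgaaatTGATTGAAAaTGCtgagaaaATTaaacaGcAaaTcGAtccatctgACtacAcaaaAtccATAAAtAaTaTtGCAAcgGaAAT
Innexin-12 (SMED30014431): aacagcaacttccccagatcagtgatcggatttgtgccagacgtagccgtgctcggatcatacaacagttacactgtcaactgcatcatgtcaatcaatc
Compared without gaps, the pair shares 44 of 100 bases at these sites, and at the best offset innexin-12 shares 39.3% with innexin unc-9 and 34.3% with innexin-19. These are single probe sites, and whole transcripts were not compared. No sequence read from the SX or C4 animals was compared with them here.

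Early embryo enriched transcripts, of which 577 of 1048 were tested, had 143 higher (24.8%, against 19% of all tested) and 79 lower (13.7%, against 13.4%). Their median was 0.06. After quantile normalization the counts turned to 99 higher and 142 lower, and the median to -0.29. The study chose this list on the embryo and yolk samples, S8 included. SED-1 and histone H2B.1 belong to it. An unannotated member (SMED30009666) measured 7.13, 18.2, 18.9 and 15.1 RPKM in SX and 0 in each C4 adult, at least 626-fold higher. The gamma and zeta neoblast lists had 3 and 4 higher and 7 and 7 lower, with medians of -0.20 and -0.49. Heat shock proteins gave 1 higher and 2 lower of 8, tubulins 2 higher and 1 lower of 8, and the ribosomal protein list, which by its search words also took in the MELK relative (SMED30004080), 2 higher and 4 lower of 10. The medians of these last 3 lists were -0.26, -0.37 and -0.34, and each turned positive under 1 alternative: 0.07 with at least 1 RPKM in at least 4 adults, 0.01 without C4 replicate 1 and 0.02 without C4 replicate 2. The muscle annotation had 4 lower and 1 higher of 11 (median -0.72).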

How the data were processed

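Polyadenylated RNA of single adults was sequenced with a kit that does not mark strand. The authors demultiplexed reads with CASAVA 1.8.2, mapped them with Bowtie 1.0.0 to a transcriptome assembled from both biotypes, kept reads with up to 5 equally good positions, and deposited RPKM values scaled between libraries by TMM. Reads that fit several paralogs can be shared among them.

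Here, log2(RPKM + 0.1) was fitted for the 8 adults with limma 3.58.1 (mean-variance trend, R 4.3.3) on 28714 transcripts with an RPKM sum of at least 1, p-values were adjusted by Benjamini-Hochberg over all of them, and calls needed an adjusted p under 0.05 and 2-fold. The rRNA transcripts to be left out had no row in the table used here. All 40 of its value columns belong to samples of the series and 0 to others. Whole reads were rebuilt from the RPKM steps (100% whole within 0.001 reads) for depth and voom. Alternatives were other pseudocounts, filters, scalings and limits, a replicate block, array weights, a fit over all samples and leaving out each animal. Nothing in the sources says that replicates were raised apart, so p-values measure the spread between these animals. Intervals and floors cover counting error only.

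Members and lists were chosen with earlier results of these data known. Transcripts were named by rule: the 8 annotated calls with the largest difference in each direction that did not overlap and reached 1 RPKM, the 3 largest of any kind, up to 4 called members a list, and a set of germ cell, prohormone, proliferation and epidermal genes. Other members given with values were chosen after those were seen.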

Additional observations from a re-analysis of the deposited data

Results flagged for a closer look

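Within the groups of 4 animals, 236 sets of values were examined for an animal far from the other 3, and 21 passed Dixon's 95% limit, where chance gives about 1 in 20. The number of transcripts at 1 RPKM or more was flagged for SX because 1 animal, with 17871, was above the other 3.

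In SX, the highest animal stood far above the others for nanos (SMED30034750, 9.08 RPKM), vasa-1 (SMED30031463, 42.1 RPKM), the protocadherin pcdhP-1 (SMED30013790, 1.21 RPKM), a complexin (SMED30000242, 14.0 RPKM), calponin-1 (SMED30015168, 180.4 RPKM), tropomyosin-2 (SMED30002983, 238 RPKM) and histone H2A.v (SMED30017222, 87.7 RPKM). The MELK relative (SMED30004080, 0.0367 RPKM) was flagged too, but on 1 read in all SX animals together. The highest animal was SX replicate 1 for nanos, vasa-1, pcdhP-1, the complexin, calponin-1 and H2A.v, and without it nanos was under the 2-fold limit, as it was without C4 replicate 3. SX replicate 1 was also the low animal for tektin-1 below. The lowest SX animal stood far below the others for sperm-associated antigen 6 (SMED30019318, 16.4 RPKM) and tektin-1 (SMED30027478, 30.8 RPKM).

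In C4, the highest animal stood far above the others for H2A.v (SMED30017222, 109.6 RPKM), a second H2B (SMED30021461, 6.93 RPKM), cyclin-dependent kinase 1-A (SMED30024555, 2.85 RPKM), VAMP2 (SMED30023495, 29.4 RPKM), FGF receptor-like 1 (SMED30029487, 11.9 RPKM) and tektin-4 (SMED30012757, 32.3 RPKM). The same held for SMED30006063 (0.120 RPKM) and the Golgi-associated pathogenesis-related protein (SMED30035604, 0.0685 RPKM), each with reads in C4 replicate 4 alone. C4 replicate 2 was the high animal for H2A.v, H2B, cyclin-dependent kinase 1-A and VAMP2, and the low animal for the male abnormal 3 relative. The lowest C4 animal stood far below the others for the striated muscle myosin heavy chain (SMED30016281, 334.5 RPKM) and the male abnormal 3 relative (SMED30019616, 1.55 RPKM).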

How the results depend on the processing

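The counts of calls depended on the treatment of low transcripts, on the scaling and on the limits. With a pseudocount of 1, 3055 transcripts were higher and 1585 lower, and with at least 1 RPKM required in at least 4 adults 3396 and 2345. Quantile normalization gave 6428 lower. Without a fold limit 6869 were higher and 7659 lower, and under the study's limits 2016 were higher and 161 lower. Leaving out each animal in turn gave 4891 to 5688 higher and 3494 to 3928 lower. Transcripts at 0 reads in every SX numbered 227 at a group mean of at least 0.1 RPKM and 5 at a group mean of at least 5 RPKM.

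After quantile normalization the medians were 0.21 for cell cycle and DNA replication, 0.08 for neoblast-enriched transcripts and -1.73 for the nervous system annotation, and with a pseudocount of 1 the last was -1.0. Of 121 named transcripts that were called, none changed direction in any alternative. The fit over all 40 samples lost 32 calls, a pseudocount of 1 lost 19, quantile normalization 6, scaling to total reads 5, array weights 3 and voom on rebuilt reads, which called 5414 higher and 4001 lower, 1. The cause was not tested.

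The replicate numbers of the groups share only a number: the correlations of same-numbered animals' deviations were -0.030, -0.051, -0.023 and -0.041. A replicate block gave 5383 higher and 3762 lower, and none of the 121 calls was lost. Depth limits transcripts near 0.1 RPKM, which rest on few reads.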
